A study of Mus musculus with 10 samples.

Results

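Neutrophil genes were followed in colon tissue from mice with colitis, in 37 of 40 listed genes that run from the granule proteins made by immature neutrophils to genes of mature and activated cells. The members are a fixed list of gene symbols, matched to the annotation of the array, and Fpr1, Fpr2 and Ly6g were not analysed here. The 37 genes are a small share of 19505 genes measured, and each had a single probe set. They were divided by role into 4 primary granule genes, 8 genes of secondary and tertiary granules, 15 genes of mature neutrophils, and 10 genes of the growth factor that drives neutrophil production and of activated cells.

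All mice were wild-type C57BL/6 animals that received 3% dextran sulfate sodium (DSS), which injures the colonic epithelium, in their water together with an injected antibody against the checkpoint receptor PD1. The 5 samples called ECP came from mice that were also given donor cells treated by ECP (extracorporeal photopheresis, in which white blood cells are taken out, loaded with a light-sensitive drug and irradiated with ultraviolet A). The 5 samples called controls came from mice with the same colitis and no such cells, so no untreated colon is part of the comparison. RNA of the complete colon was hybridised to 1 gene-level array per sample, and values are log2 intensities. Age, sex, time of sampling, and the type and number of donor cells are not stated in the labels, nor whether the arrays stem from separate mice. The p-values therefore describe only the spread among these samples, which may be technical.

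Neutrophils are short-lived phagocytes that are made in the bone marrow under the cytokine G-CSF, encoded by Csf3, and enter the injured colon in large numbers during colitis. As they mature they fill primary, secondary and tertiary granules in turn, and most granule genes are transcribed in marrow precursors and turned off before the cell reaches the tissue. Genes of mature and activated cells, such as S100a8 and S100a9, which form the calcium-binding protein calprotectin, are transcribed in circulating or tissue neutrophils. In tissue RNA, a change in the number of neutrophils and a change in RNA per neutrophil cannot be told apart. Nor can either be told from a change in other cells of the colon that express some of the listed genes.

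The promoter sequences below are shown because they belong to genes whose levels are compared below, and because each holds a match to a binding motif of C/EBP or PU.1, transcription factors that act in granulocyte development. They are taken from RefSeq (GRCm38.p6), which had a promoter entry for 33 of the 40 listed genes, and show the bases just before the annotated start of transcription, 5′ to 3′ on the strand of the gene, with the match in capitals. The first pair are neighbouring primary granule genes, the next 3 are genes of secondary and tertiary granules, Clec4e is an activation gene, and the last pair are the calprotectin genes.
Prtn3, chr10:79879547-79879666, plus strand: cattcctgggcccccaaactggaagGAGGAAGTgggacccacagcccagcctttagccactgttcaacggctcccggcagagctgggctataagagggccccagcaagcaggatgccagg
Elane, chr10:79886192-79886311, plus strand: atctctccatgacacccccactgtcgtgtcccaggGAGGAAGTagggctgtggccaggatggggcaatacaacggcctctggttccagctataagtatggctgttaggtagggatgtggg
Ltf, chr9:111019172-111019291, plus strand: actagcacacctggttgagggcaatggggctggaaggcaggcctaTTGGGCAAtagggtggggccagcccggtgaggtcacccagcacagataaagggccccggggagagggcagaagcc
Ngp, chr9:110419688-110419807, plus strand: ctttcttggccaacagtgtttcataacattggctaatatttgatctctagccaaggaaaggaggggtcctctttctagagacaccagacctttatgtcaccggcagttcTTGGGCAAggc
Mmp8, chr9:7558309-7558428, plus strand: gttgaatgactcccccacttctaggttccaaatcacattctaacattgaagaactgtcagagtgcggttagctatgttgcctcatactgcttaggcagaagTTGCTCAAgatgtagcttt
Clec4e, chr6:123289872-123289991, minus strand: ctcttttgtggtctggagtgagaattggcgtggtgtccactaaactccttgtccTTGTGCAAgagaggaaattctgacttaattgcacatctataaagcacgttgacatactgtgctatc
S100a8, chr3:90668821-90669070, plus strand: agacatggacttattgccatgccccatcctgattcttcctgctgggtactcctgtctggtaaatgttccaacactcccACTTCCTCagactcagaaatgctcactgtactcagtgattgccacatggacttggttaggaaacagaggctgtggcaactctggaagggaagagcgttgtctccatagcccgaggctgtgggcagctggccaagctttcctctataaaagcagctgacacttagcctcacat
S100a9, chr3:90695722-90695971, minus strand: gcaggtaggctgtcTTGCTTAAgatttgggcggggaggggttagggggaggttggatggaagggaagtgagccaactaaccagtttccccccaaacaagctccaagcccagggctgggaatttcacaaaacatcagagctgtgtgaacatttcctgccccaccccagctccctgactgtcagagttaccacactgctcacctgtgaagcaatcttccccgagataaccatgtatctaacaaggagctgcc

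The motifs were searched on both strands of the 250 bases before the start as TTGCNNAA for C/EBP and GAGGAAGT for PU.1, and no match overlapped another in the sequences printed. C/EBP matches were found in 8 of the 33 genes (24.2%), against 10.8% of 27025 genes with a promoter entry. PU.1 matches were found in 6 genes (18.2%, against 2.79%), among them the primary granule genes Mpo, Elane and Prtn3. A match is a description of the letters and does not show that a factor binds there. Within the list, Prtn3 and Elane, S100a8 and S100a9, Trem1 and Trem3, and Clec4d and Clec4e are direct neighbours on their chromosomes, with 0 other protein-coding genes between them.

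No neutrophil gene differed between the groups past the threshold. With limma and adjustment over all 19505 genes, 0 of 37 genes had an adjusted p under 0.05 (all genes, 0%), and the smallest adjusted p among them was 0.822. An unadjusted p under 0.05 was reached by 1 gene, Mpo, against 5.08% of all genes (991), or 2.77% counting only genes lower under ECP, as Mpo was. Under ECP 18 of the 37 genes were higher and 19 lower, and the median difference was -0.011 (ECP minus control, log2), beside 0.0078 over all genes. The ranges of the groups overlapped for each of the 37 genes, and did not overlap for 1.22% of all genes. Differences ran from -0.57 for Ngp to 0.60 for Acod1. The 95% interval lay between -1 and 1 (a change of less than 2-fold either way) for 30 genes, and between -0.5 and 0.5 for 19. For the other 7, among them S100a8, S100a9, Retnlg, Mmp8 and Ngp, the arrays do not limit the difference to less than 2-fold.

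**Figure D1:**
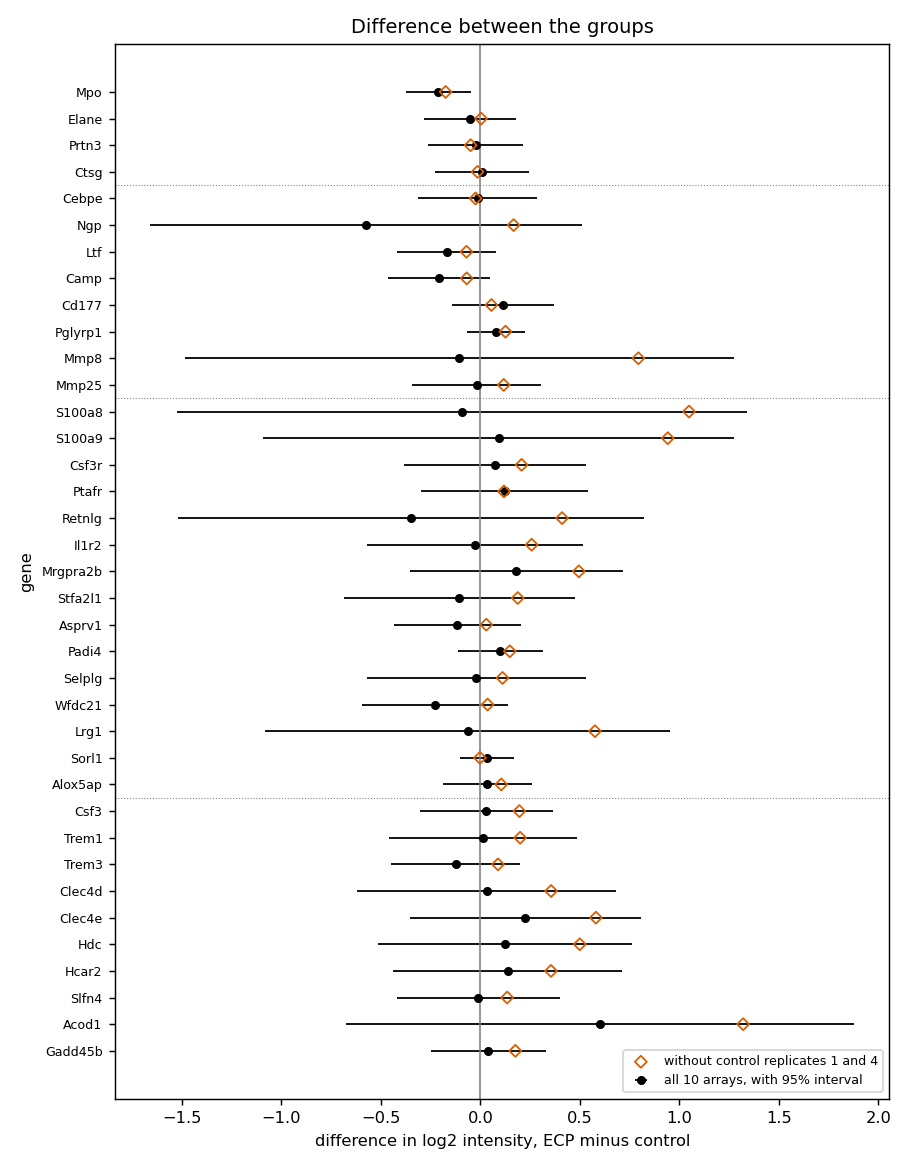
Difference in log2 intensity (x axis, ECP minus control) for each of the 37 neutrophil genes (y axis), grouped from primary granule genes at the top to activated genes at the bottom. Black points and lines are the estimate and 95% interval of limma with all 10 arrays, and open diamonds are the estimates without control replicates 1 and 4. All intervals but that of Mpo include 0, and the diamonds lie right of 0 for 30 genes.

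The levels differed most between control arrays. Control replicate 4 held the highest value of the 10 arrays for 22 of the 37 genes, and control replicate 5 the lowest for 18, where over all genes these shares were 15.7% and 7.79%. Control replicate 1 was highest for 7 (18.9%), near its share of 15.9% over all genes. The SD of the controls was larger than that of the ECP arrays for 34 of the 37 genes (91.9%, against 65.8% of all genes), with a median SD of 0.42 in controls and 0.21 in ECP arrays. Without control replicate 4 the SD of the controls was larger for 23 (62.2%, against 55.4% of all genes). The difference between the 2 shares was not tested.

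**Figure D2:**
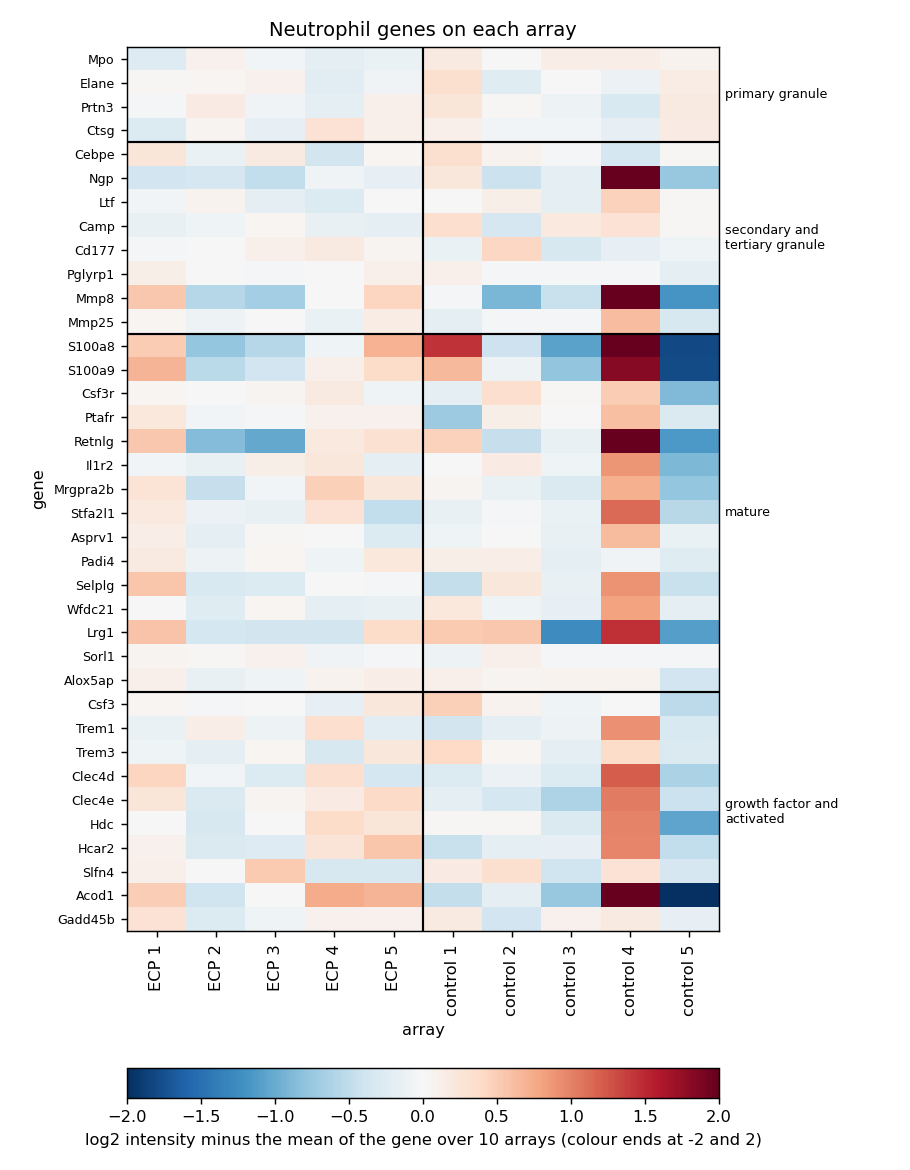
Log2 intensity of the 37 neutrophil genes (rows) on the 10 arrays (columns), as the deviation from the mean of each gene, with red for higher and blue for lower values. Control replicate 4 is red for most genes of the lower 3 groups and control replicate 5 is blue, while the 5 ECP arrays show paler colours. The 4 primary granule genes, whose mean levels lay below the median gene level, do not show this pattern.

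Primary granule genes code for enzymes stored in the first granules of promyelocytes: the peroxidase Mpo and the serine proteases Elane (neutrophil elastase), Prtn3 (proteinase 3) and Ctsg (cathepsin G). Their mean level was 5.76 ± 0.084 with ECP and 5.83 ± 0.14 without (SD, n = 5), and 1 gene was higher in the ECP arrays and 3 were lower. Mpo was at 5.72, 5.54, 5.67, 5.68 and 5.61 in control replicates 1 to 5 and 5.28, 5.63, 5.49, 5.37 and 5.40 in ECP replicates 1 to 5. The 4 lowest Mpo values were those of ECP replicates 1, 3, 4 and 5, while ECP replicate 2 lay within the control range. Mpo differed by -0.21 (SE 0.075, 95% interval -0.37 to -0.049, limma adjusted p = 0.822), with an unadjusted p of 0.0152. Its difference was -0.18 without control replicates 1 and 4 and between -0.26 and -0.17 with any single array left out, so that it kept its sign. The change in level is small, at 0.863 of the control level. Mpo lay below the median gene level of 7.07 on all arrays, where a low level cannot be told from background.

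Elane was at 6.83, 6.27, 6.52, 6.40 and 6.65 in control replicates 1 to 5 and 6.54, 6.55, 6.60, 6.28 and 6.44 in ECP replicates 1 to 5. The highest and the lowest value were both those of control arrays, 1 and 2. Elane differed by -0.052 (SE 0.11, 95% interval -0.28 to 0.18, limma adjusted p = 0.999). Ctsg was at 4.35, 4.20, 4.21, 4.09 and 4.42 in control replicates 1 to 5 and 3.99, 4.32, 4.10, 4.55 and 4.35 in ECP replicates 1 to 5, where ECP replicates 4 and 1 held the highest and the lowest value. Ctsg and Prtn3 differed by 0.0072 and -0.024. None of the 4 genes had a range above 0.57 over the 10 arrays, and control replicate 4, the array highest in many other neutrophil genes, was lowest of the controls for Prtn3 and Ctsg. The mean levels of all 4 lay below the median gene level of 7.07, where a low level cannot be told from background.

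Genes of secondary and tertiary granules, made in myelocytes and band cells, had a mean level of 6.65 ± 0.094 with ECP and 6.76 ± 0.43 without (SD, n = 5), with 2 genes higher under ECP and 6 lower. The difference of -0.11 became 0.068 without control replicate 4. Ngp, neutrophilic granule protein, was at 5.32, 4.67, 4.92, 7.68 and 4.35 in control replicates 1 to 5 and 4.72, 4.77, 4.61, 5.04 and 4.94 in ECP replicates 1 to 5. The value of control replicate 4 stood above every other array, and the other 9 arrays lay between 4.35 and 5.32. Ngp differed by -0.57 (SE 0.50, 95% interval -1.66 to 0.51, limma adjusted p = 0.998), and by -0.0025 without control replicate 4.

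Mmp8, the neutrophil collagenase, was at 5.07, 4.17, 4.64, 7.92 and 3.91 in control replicates 1 to 5 and 5.63, 4.51, 4.42, 5.10 and 5.51 in ECP replicates 1 to 5. Control replicate 4 was again far above the rest and control replicate 5 lowest. Mmp8 differed by -0.11 (SE 0.63, 95% interval -1.49 to 1.27, limma adjusted p = 1.000), and by 0.59 without control replicate 4. Of the iron-binding lactoferrin gene Ltf, the levels were 5.33, 5.44, 5.15, 5.79 and 5.34 in control replicates 1 to 5 and 5.26, 5.40, 5.15, 5.05 and 5.33 in ECP replicates 1 to 5. Ltf was highest in control replicate 4, with the other controls within or close to the ECP range, and differed by -0.17 (SE 0.11, 95% interval -0.42 to 0.079, limma adjusted p = 0.998).

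Camp, which codes for the antimicrobial peptide cathelicidin, was at 6.43, 5.76, 6.30, 6.38 and 6.12 in control replicates 1 to 5 and 5.94, 6.02, 6.14, 5.95 and 5.91 in ECP replicates 1 to 5. Control replicates 1, 3 and 4 lay above the 5 ECP arrays and control replicate 2 below them. Camp differed by -0.21 (SE 0.12, 95% interval -0.46 to 0.048, limma adjusted p = 0.998), or by -0.069 without control replicates 1 and 4. The other genes of this group differed less: Cebpe, the transcription factor that drives secondary granule formation, by -0.014, and Mmp25, a membrane-bound protease of tertiary granules, by -0.019. The surface glycoprotein gene Cd177 differed by 0.11 and the peptidoglycan-binding protein gene Pglyrp1 by 0.077, and for both the highest array was another than control replicate 4. Cd177 was highest in control replicate 2 and Pglyrp1 in ECP replicate 1. Mean levels with ECP and without were high for both, at 10.79 and 10.68 for Cd177 and 10.46 and 10.39 for Pglyrp1. Which cells these levels came from was not tested.

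**Figure D3:**
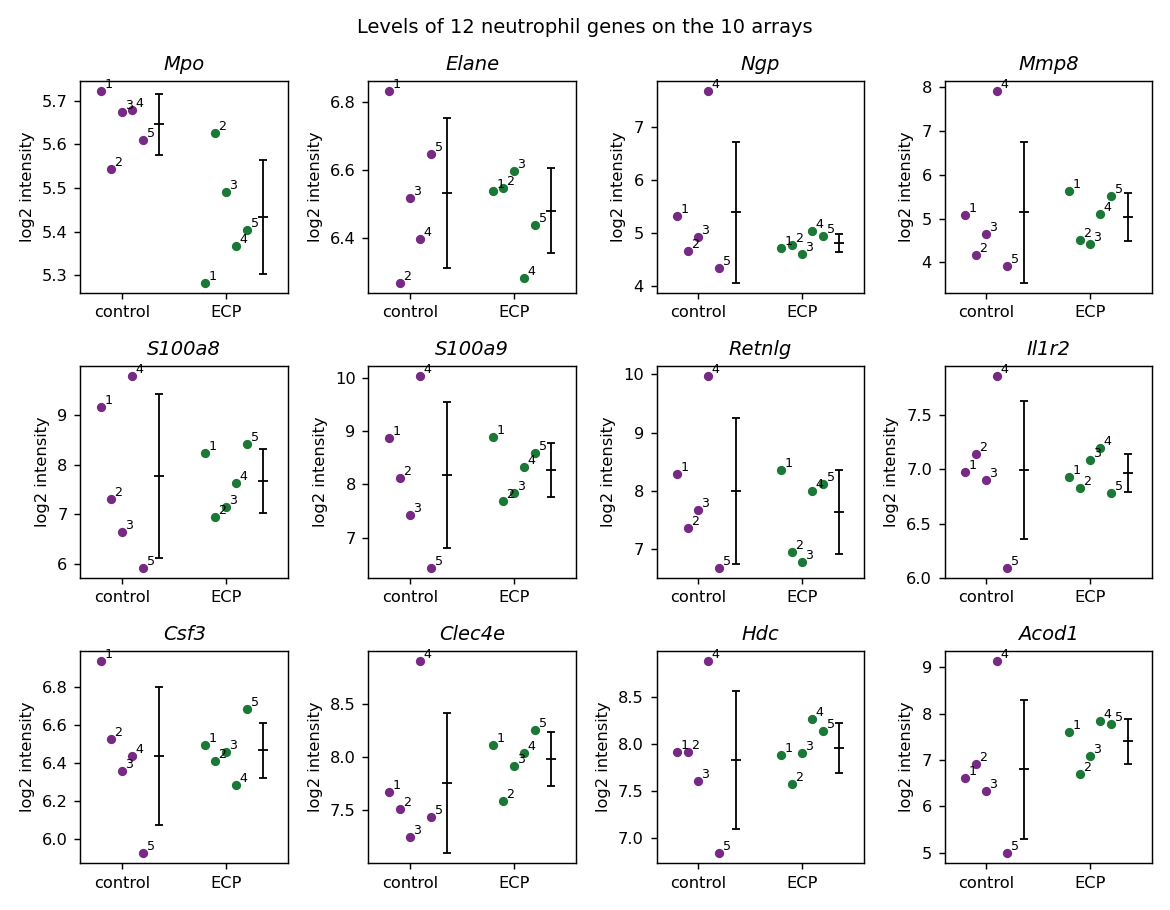
Log2 intensity (y axes, each with its own scale) of 12 neutrophil genes in the 5 control and 5 ECP samples, with a point per array, replicate numbers beside the points, and the mean with SD bars at the right of each group. Group means are close for most genes, and control replicates 4 and 5 spread the controls in Mmp8, S100a8, S100a9, Retnlg, Il1r2, Hdc and Acod1.

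Genes of mature neutrophils had a mean level of 7.17 ± 0.22 with ECP and 7.19 ± 0.60 without (SD, n = 5), with 7 of the 15 higher under ECP and 8 lower. The difference of -0.025 was 0.20 without control replicate 4 and -0.21 without control replicate 5. S100a8 was at 9.16, 7.30, 6.65, 9.79 and 5.92 in control replicates 1 to 5 and 8.23, 6.94, 7.14, 7.63 and 8.41 in ECP replicates 1 to 5. Control replicates 4 and 1 were highest and control replicate 5 lowest, so that the controls enclosed the whole ECP range. S100a8 differed by -0.093 (SE 0.66, 95% interval -1.53 to 1.34, limma adjusted p = 1.000), and by 0.41 without control replicate 4. S100a9 was at 8.86, 8.12, 7.43, 10.03 and 6.43 in control replicates 1 to 5 and 8.89, 7.69, 7.84, 8.32 and 8.59 in ECP replicates 1 to 5. It followed the same order at both ends, with control replicate 4 highest and control replicate 5 lowest, and differed by 0.091 (SE 0.54, 95% interval -1.09 to 1.28, limma adjusted p = 1.000).

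Retnlg, resistin-like gamma, a secreted protein of mature neutrophils, was at 8.28, 7.36, 7.67, 9.98 and 6.67 in control replicates 1 to 5 and 8.35, 6.95, 6.79, 8.0 and 8.12 in ECP replicates 1 to 5. ECP replicates 2 and 3 lay close to control replicate 5 at the low end, and control replicate 4 was the highest by far. Retnlg differed by -0.35 (SE 0.54, 95% interval -1.52 to 0.82, limma adjusted p = 0.998), and by 0.15 without control replicate 4. The decoy receptor gene Il1r2, which captures interleukin-1, was at 6.98, 7.14, 6.90, 7.86 and 6.09 in control replicates 1 to 5 and 6.93, 6.83, 7.09, 7.20 and 6.78 in ECP replicates 1 to 5. The ECP arrays lay close together, between 6.78 and 7.20, while control replicates 4 and 5 lay above and below them. Il1r2 differed by -0.028 (SE 0.25, 95% interval -0.57 to 0.51, limma adjusted p = 1.000).

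Csf3r, the receptor for G-CSF, was at 7.33, 7.85, 7.53, 8.02 and 6.63 in control replicates 1 to 5 and 7.54, 7.51, 7.57, 7.69 and 7.42 in ECP replicates 1 to 5. Control replicates 2 and 4 lay above the ECP range and control replicates 1 and 5 below it, and Csf3r differed by 0.073 (SE 0.21, 95% interval -0.38 to 0.53, limma adjusted p = 1.000). Wfdc21, a small secreted protein gene, was at 5.32, 5.02, 4.94, 5.90 and 4.91 in control replicates 1 to 5 and 5.09, 4.86, 5.14, 4.90 and 4.96 in ECP replicates 1 to 5. Only control replicates 4 and 1 lay above the ECP arrays, and the difference was -0.23, or 0.036 without control replicates 1 and 4. Padi4, the enzyme that citrullinates histones when neutrophils release their chromatin, was at 5.30, 5.32, 4.99, 5.10 and 4.94 in control replicates 1 to 5 and 5.37, 5.08, 5.21, 5.10 and 5.39 in ECP replicates 1 to 5. ECP replicates 5 and 1 held the highest values, the ranges overlapped, and the difference was 0.099 (SE 0.098, 95% interval -0.12 to 0.31, limma adjusted p = 0.998).

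The remaining mature genes gave differences between -0.12 for the skin and neutrophil protease gene Asprv1 and 0.18 for the receptor gene Mrgpra2b, which was 0.38 without control replicate 4 and 0.0090 without control replicate 5. The acute-phase glycoprotein gene Lrg1 differed by -0.065, with 9.59 in control replicate 4 and 6.87 in control replicate 3. The protease inhibitor gene Stfa2l1 differed by -0.11, the selectin ligand gene Selplg by -0.021 and the platelet-activating factor receptor gene Ptafr by 0.12. Alox5ap, needed for leukotriene synthesis, and the sorting receptor gene Sorl1 differed by 0.035 and 0.034. Sorl1 had the smallest range of all 37 genes, 0.21 over the 10 arrays, and Selplg and Alox5ap are also expressed in other leukocytes.

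Csf3 and the activation genes had a mean level of 7.19 ± 0.14 with ECP and 7.08 ± 0.53 without (SD, n = 5), with 8 genes higher under ECP and 2 lower. The difference of 0.11 was 0.32 without control replicate 4 and -0.040 without control replicate 5. Csf3, which codes for G-CSF and is made by epithelial, stromal and myeloid cells, was at 6.94, 6.53, 6.36, 6.44 and 5.93 in control replicates 1 to 5 and 6.50, 6.41, 6.46, 6.28 and 6.69 in ECP replicates 1 to 5. Control replicate 1 was highest and control replicate 5 lowest, and Csf3 differed by 0.029 (SE 0.15, 95% interval -0.30 to 0.36, limma adjusted p = 1.000). Csf3 and its receptor gene Csf3r shared their lowest array, control replicate 5, but not their highest.

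Acod1, the enzyme that makes itaconate in activated myeloid cells, was at 6.62, 6.92, 6.34, 9.14 and 4.99 in control replicates 1 to 5 and 7.60, 6.70, 7.10, 7.84 and 7.78 in ECP replicates 1 to 5. It had the widest range of the 37 genes, 4.15 log2 units between control replicates 4 and 5, and control replicates 1, 2, 3 and 5 lay below ECP replicates 1, 3, 4 and 5. Acod1 differed by 0.60 (SE 0.58, 95% interval -0.67 to 1.88, limma adjusted p = 0.998), by 1.19 without control replicate 4 and by 0.15 without control replicate 5. Clec4e, a receptor for fungal and mycobacterial glycolipids and for dead cells, was at 7.67, 7.51, 7.25, 8.90 and 7.44 in control replicates 1 to 5 and 8.11, 7.58, 7.91, 8.03 and 8.25 in ECP replicates 1 to 5. Control replicates 2, 3 and 5 lay below all ECP arrays, control replicate 1 within their range and control replicate 4 above them. Clec4e differed by 0.23 (SE 0.27, 95% interval -0.36 to 0.81, limma adjusted p = 0.998), by 0.51 without control replicate 4 and by 0.099 without control replicate 3.

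Hdc, which makes histamine in mast cells, basophils and neutrophils, was at 7.91, 7.92, 7.61, 8.88 and 6.84 in control replicates 1 to 5 and 7.89, 7.57, 7.90, 8.27 and 8.14 in ECP replicates 1 to 5. Control replicates 4 and 5 held the extremes, and Hdc differed by 0.12 (SE 0.29, 95% interval -0.52 to 0.76, limma adjusted p = 1.000). The summed intensity (linear scale) of 13 mast cell and eosinophil markers was 677 in control replicate 4 and 726 in control replicate 5, within a range of 575 to 726 over all arrays. The part of these cells in the level of Hdc was not tested. The receptor genes Clec4d and Trem1, together with Hcar2, a receptor for niacin and ketone bodies, were also highest in control replicate 4 and differed by 0.031, 0.012 and 0.14. The difference of Hcar2 was 0.40 without control replicate 4 and 0.013 without ECP replicate 5. Trem3 was highest in control replicate 1 and differed by -0.13, the interferon-regulated gene Slfn4 was highest in ECP replicate 3 and differed by -0.011, and the stress gene Gadd45b was highest in ECP replicate 1 and differed by 0.040.

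**Figure D4:**
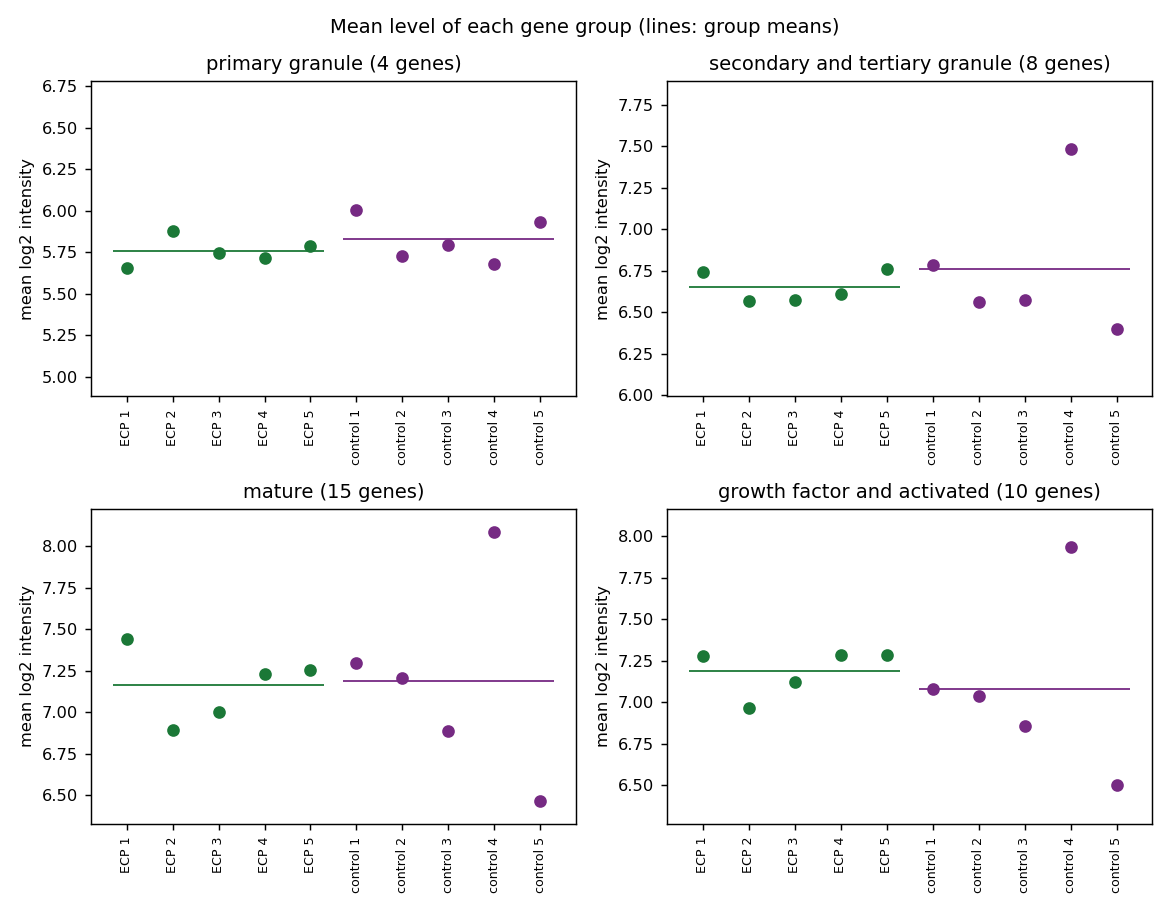
Mean log2 intensity (y axis, all panels spanning the same number of log2 units) of the 4 gene groups on each array (x axis), in green for ECP and purple for controls, with lines at the group means. Control replicate 4 is highest and control replicate 5 lowest in the lower 2 panels and in the secondary and tertiary granule panel. The primary granule panel shows neither, and the mean levels of its genes lay below the median gene level.

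Without control replicates 1 and 4, the direction of many neutrophil genes turned. Of the 37 genes 30 were then higher under ECP and 7 lower, at a median difference of 0.15 (all genes -0.0016, 49.4% higher). With limma 0 passed the threshold (all genes, 0%), and 7 had an unadjusted p under 0.05, all higher, which is 18.9% of the 37 against 6.6% of all genes. These were Acod1, S100a8, S100a9, Mmp8, Clec4e, Hdc and Mrgpra2b, with differences from 0.49 for Mrgpra2b to 1.32 for Acod1. Their limma adjusted p-values ran from 0.456 for Clec4e to 0.756 for Hdc. Control replicate 4 held the highest value of each of these 7. Control replicate 5, which was kept, held the lowest of all but Clec4e. Leaving out the highest control raises such differences in advance, so these counts cannot show a difference between the groups. By group, 14 of 15 mature genes and 10 of 10 activation genes were higher, against 5 of 8 secondary and tertiary granule genes and 1 of 4 primary granule genes. Mean differences were 0.31, 0.39, 0.14 and -0.059 in that order.

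The size of these differences moved with control replicate 5, lowest for many of the genes and 1 of the 3 controls that remain. Without it as well (an alternative chosen after the data had been seen), 28 genes were higher and 9 lower, the median difference was 0.031, and 2 genes had an unadjusted p under 0.05 (5.41%, against 5.59% of all genes). More genes were higher than lower (of all genes 50.2% were higher), at smaller differences and with only control replicates 2 and 3 left. Control replicate 4, highest for 22 of the 37 genes, was left out here too, which raises differences in advance. These counts therefore cannot show a difference between the groups either. Higher were 10 of 10 activation genes (mean difference 0.24), 10 of 15 mature genes (0.12), 5 of 8 secondary and tertiary granule genes (0.081) and 3 of 4 primary granule genes (-0.0012). Some of these genes varied together over the arrays, so the counts are not of independent genes. Leaving out control replicate 4 alone gave 27 higher and 10 lower, and leaving out control replicate 5 alone gave 12 higher and 25 lower. The sign of 27 of the 37 differences changed under at least 1 alternative. None of the 37 genes passed the threshold in any of them.

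Some markers of other tissues also stood apart in control replicate 4, and others did not. The summed intensity (linear scale) of 12 of 14 listed pancreatic acinar genes reached 62944, 21360 and 1393 in control replicates 4, 1 and 5. Control replicates 3 and 2 gave 692 and 792, and the ECP arrays 631 to 783. That of 8 of 9 B cell markers was 3214 in control replicate 4, 573 to 656 in the other controls and 518 to 1076 in the ECP arrays. For 10 of 12 monocyte and macrophage markers it was 4043 in control replicate 4 and 2162 to 3168 in the other controls, against 2529 to 4179 in the ECP arrays. For 3 of 8 red cell markers it was 303 in control replicate 4, 316 to 403 in the other controls and 301 to 387 in the ECP arrays. The 9 colon epithelium markers, such as Muc2 and Cdx2, gave 39981 in control replicate 4, below the 46730 to 50012 of the other controls and the 44802 to 48496 of the ECP arrays, and were high on all 10 arrays. The part of these tissues in the neutrophil levels was not tested, and RMA values have no zero, so absence of a marker could not be read. Control replicate 1, next highest in acinar genes, was highest of the 10 arrays for 7 of the 37 neutrophil genes and lowest for 4. These shares were 18.9% and 10.8%, against 15.9% and 18.4% of all genes.

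Some mature and activation genes varied with S100a9 over the arrays. Each of the other 36 genes was compared with S100a9 over the 10 arrays, with p-values adjusted over the 36. S100a8 followed S100a9 most closely, with Pearson r = 0.96 (permutation p = 1e-05, adjusted 0.00036) and Spearman rho = 0.96 (permutation p = 2e-05, adjusted 0.00072), where the Pearson p is the smallest that 100000 resamples can give. Both coefficients passed the threshold for 7 genes, which were S100a8, Retnlg, Mrgpra2b, Lrg1 and Alox5ap among mature genes, Mmp8 among granule genes and Clec4e among activation genes. Retnlg gave Pearson r = 0.90 (permutation p = 0.00044, adjusted 0.00423) and Spearman rho = 0.92 (permutation p = 0.00066, adjusted 0.01188), and Mmp8 gave Pearson r = 0.87 (permutation p = 0.0004, adjusted 0.00423) and Spearman rho = 0.84 (permutation p = 0.00381, adjusted 0.02286). Pearson's r passed for 18 genes, these 7 among them. By both coefficients 5 of the 14 other mature genes, 1 of 10 activation genes, 1 of 8 secondary and tertiary granule genes and 0 of 4 primary granule genes passed, and the difference between the gene groups was not tested. Ptafr (r = 0.44), Sorl1 (-0.18), Slfn4 (0.43) and Trem1 (0.57) passed by neither.

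Leaving out control replicates 4 and 5, the 2 arrays farthest from the median of S100a9, gave r = 0.94 for S100a8, 0.84 for Lrg1, 0.78 for Retnlg, 0.75 for Mmp8, 0.72 for Mrgpra2b, 0.65 for Clec4e and 0.65 for Alox5ap over 8 arrays. For Il1r2 r went from 0.83 to -0.0068, for Csf3r from 0.71 to -0.30 and for Stfa2l1 from 0.76 to 0.12, so that their relation to S100a9 rested on those arrays. The activation genes Trem1, Hcar2 and Clec4d went from 0.57, 0.74 and 0.80 to -0.37, 0.31 and 0.33. Other coefficients rose, among them those of Pglyrp1 from 0.639 to 0.877 and of Padi4 from 0.529 to 0.799. Over all arrays neither of these had passed the threshold by either coefficient. The primary granule genes had r between -0.46 (Prtn3) and -0.10 (Mpo) with adjusted permutation p-values from 0.235 to 0.804. Their mean levels lay below the median gene level, where a low level cannot be told from background. An r above 0.8 with S100a9 was found for 9 of the 36 genes (25.0%) and for 0.995% of all genes but S100a9, the 36 included. Without the 2 arrays it was found for 3 of the 36 (8.33%) and for 1.02% of all genes but S100a9.

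**Figure D5:**
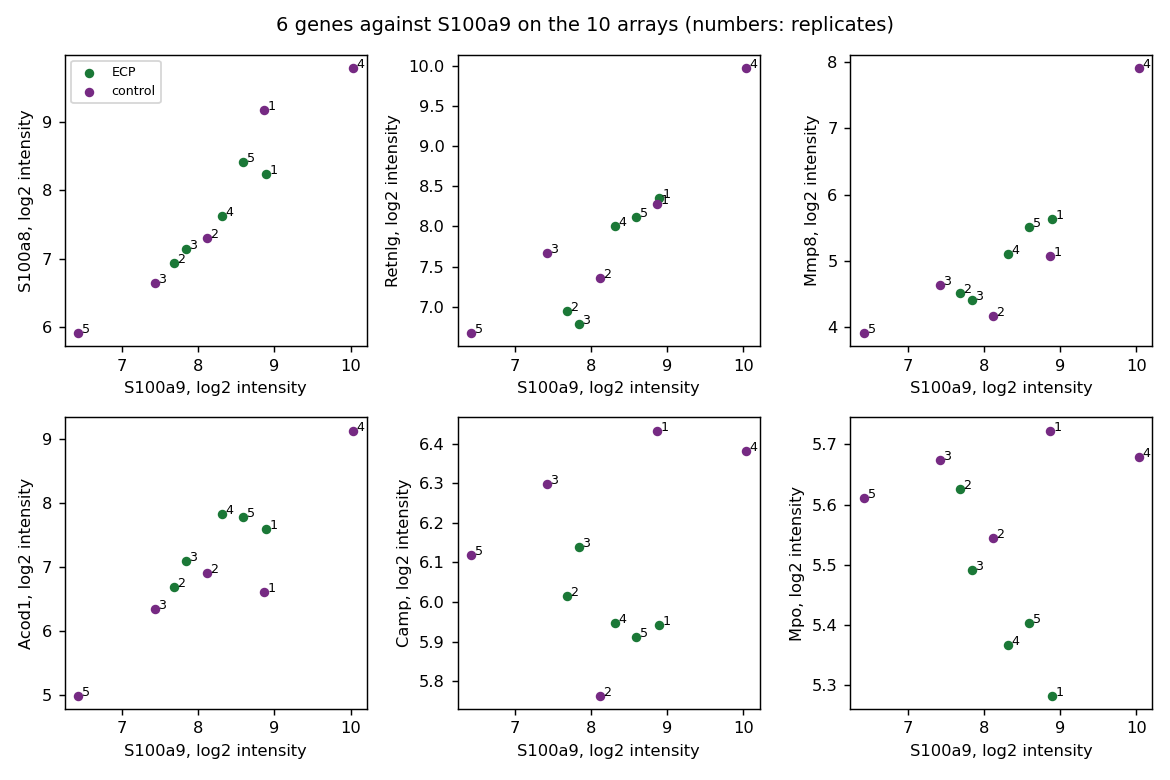
Log2 intensity of 6 genes (y axes) against that of S100a9 (x axis) on the 10 arrays, in green for ECP and purple for controls, with replicate numbers. S100a8, Retnlg and Mmp8 rise with S100a9 over both groups, Acod1 does so except in control replicate 1, and Camp and Mpo show no such order.

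Genes that bring neutrophils into tissue were described in the same way. Of 22 listed genes for chemokines, their receptors, integrins, selectins and upstream cytokines, 21 were measured, with 11 higher under ECP and 10 lower, and 0 passed the threshold in either direction (median difference 0.00039). Without control replicates 1 and 4, 18 were higher and 3 lower (median difference 0.11). Of the 21, 4 had an unadjusted p under 0.05 (6.6% of all genes did), and with limma 0 passed the threshold. Control replicate 4 was the highest array for most of these genes, so leaving it out raised their differences in advance. The neutrophil-attracting chemokine gene Cxcl2 differed by 0.64 (SE 0.51), Il17a, whose product induces such chemokines, by 0.19 (SE 0.093), the growth factor gene Csf2 by -0.20 (SE 0.11) and the marrow-retention receptor gene Cxcr4 by -0.23 (SE 0.27). An unadjusted p under 0.05 was reached by 0 of these 21 with all arrays, against 5.08% of all genes. Cxcl2 was at 7.55, 7.19, 7.36, 9.17 and 5.62 in control replicates 1 to 5 and 8.05, 7.48, 7.41, 8.70 and 8.47 in ECP replicates 1 to 5, with the same arrays at both ends as S100a9.

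Of 14 listed genes for the superoxide-producing oxidase and for secreted effectors, 12 were measured, 8 were higher and 4 lower, and 0 passed the threshold (median difference 0.043). Without control replicates 1 and 4, 12 were higher and 0 lower (median difference 0.18). Of the 12, 4 had an unadjusted p under 0.05 (6.6% of all genes did), and with limma 0 passed the threshold. Control replicate 4 was the highest array for all of these genes but Cyba and Ptgs2, so leaving it out raised their differences in advance. Ptgs2, the inducible prostaglandin synthase, differed by 0.75 (SE 0.26, limma adjusted p = 0.807) and was with all arrays the only one of the 12 with an unadjusted p under 0.05, against 5.08% of all genes. It was at 7.73, 8.12, 8.07, 8.85 and 7.55 in control replicates 1 to 5 and 8.44, 8.64, 8.41, 9.51 and 9.08 in ECP replicates 1 to 5. ECP replicates 2, 4 and 5 and control replicate 4 held the 4 highest values, and the other 4 controls lay below all ECP arrays. Both lists were chosen with earlier results of these data known, and neither was examined without control replicate 5 as well.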

How the data were processed

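Total RNA of colon tissue was measured on 10 single-colour gene-level arrays. The deposited values are log2 intensities made by the authors; per the submitters' processing notes oligo and RMA were used, with versions and options not given in the sources used here. RMA corrects background, equalises the distributions of the arrays and summarises probes, so a shift common to most genes is hidden. Array medians lay between 6.94 and 6.98. Probe sets were named through the platform annotation and a RefSeq gene table: 19572 of 22203 probe sets had 1 symbol, 0 had several, and 2631 were unnamed. For each gene the probe set with the highest mean over the 10 arrays was kept.

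Groups and replicate numbers came from the sample titles. The comparison used limma (version 3.58.1; lmFit, then eBayes; two-sided; no covariate) in R (version 4.3.3) over all 19505 genes, with Benjamini-Hochberg adjustment and a threshold of 0.05. Gene groups and lists were described by counts and means with no test. The fits and correlations were tested on simulated data. The labels give no batch. Values on every array are given for a short list of genes (such as S100a8, Csf3 and Camp) and, in each group, for the 2 with the smallest p and the 2 with the widest range; in each other list up to 4 genes chosen by p or size are named. Members, groups, lists and alternatives were chosen with earlier results of these data known. Alternatives were median centring, renewed quantile normalisation, 2 filters on dim genes, the mean of probe sets, trend with robust eBayes, weighted arrays, the replicate block, and arrays left out.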

Additional observations from a re-analysis of the deposited data

Results flagged for a closer look

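In 7 of 82 groups of 5 arrays examined, the highest or lowest array lay apart, in that its distance to the next array exceeded 0.71 of the whole range, where chance gives about 4.1. All 7 were in the controls. Control replicate 4 was high in 6 of them: Mmp8 (7.92, next 5.07), Asprv1 (7.13, next 6.51), Trem1 (6.89, next 5.87), Clec4d (7.16, next 5.84), Clec4e (8.90, next 7.67) and Hcar2 (7.52, next 6.39). These code for a collagenase, a protease, receptors of activated myeloid cells and the niacin receptor. Control replicate 5 was low in Alox5ap (7.81, next 8.26), a gene of leukotriene synthesis. S100a8 and Acod1 were not among them.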

How the results depend on the processing

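With limma the count of genes past the threshold, 0 of 19505, was 1 when the dimmest quartile of genes was dropped, 7 when all genes below the median were dropped, 1 with trend and robust options, and 0 to 1 with each array left out in turn (1 without control replicate 3). None of these genes was a neutrophil gene on the list: the count there was 0 under every alternative. The filters left 30 and 16 of the 37 genes to test. Where a group mean difference was computed, it moved by less than 1 SD between replicates, an SD pooled over both groups that holds control replicate 4. No group mean was computed with trend and robust options, nor for primary granule genes above the median. Signs that turned with array weights gave differences of 0.31 for Mmp8, 0.034 for Mmp25, 0.40 for S100a8, 0.12 for Il1r2, 0.064 for Stfa2l1, 0.17 for Lrg1 and 0.072 for Slfn4. Signs that turned without control replicates 1 and 4 gave differences of 0.0030 for Elane, -0.015 for Ctsg, 0.17 for Ngp, 0.79 for Mmp8, 0.12 for Mmp25, 1.05 for S100a8, 0.41 for Retnlg, 0.26 for Il1r2, 0.19 for Stfa2l1, 0.029 for Asprv1, 0.11 for Selplg, 0.036 for Wfdc21, 0.58 for Lrg1, -0.0027 for Sorl1, 0.088 for Trem3 and 0.13 for Slfn4. Signs that turned without control replicates 1, 4 and 5 gave differences of 0.088 for Elane, 0.025 for Prtn3, 0.018 for Ngp, 0.63 for Mmp8, 0.021 for Mmp25, 0.70 for S100a8, -0.15 for Csf3r, 0.13 for Retnlg, 0.031 for Stfa2l1, 0.0068 for Asprv1, 0.012 for Wfdc21, 0.33 for Lrg1, -0.028 for Sorl1, -0.046 for Alox5ap, 0.018 for Trem3 and 0.034 for Slfn4. With each array left out in turn, signs turned for 23 genes, whose differences ran from -0.12 to 0.024 for Elane, -0.10 to 0.035 for Prtn3, -0.064 to 0.075 for Ctsg, -0.10 to 0.075 for Cebpe, -0.41 to 0.59 for Mmp8, -0.10 to 0.13 for Mmp25, -0.55 to 0.41 for S100a8, -0.35 to 0.56 for S100a9, -0.14 to 0.21 for Csf3r, -0.047 to 0.29 for Ptafr, -0.68 to 0.15 for Retnlg, -0.25 to 0.19 for Il1r2, -0.26 to 0.16 for Stfa2l1, -0.17 to 0.029 for Asprv1, -0.16 to 0.20 for Selplg, -0.39 to 0.29 for Lrg1, -0.058 to 0.077 for Alox5ap, -0.099 to 0.15 for Csf3, -0.077 to 0.24 for Trem1, -0.13 to 0.34 for Clec4d, -0.13 to 0.38 for Hdc, -0.14 to 0.068 for Slfn4 and -0.053 to 0.11 for Gadd45b. For the other genes but Mpo, whose sign did not turn, the differences ran over the same settings from -0.83 to -0.0025 for Ngp, -0.24 to -0.075 for Ltf, -0.32 to -0.15 for Camp, 0.048 to 0.23 for Cd177, 0.041 to 0.11 for Pglyrp1, 0.0090 to 0.38 for Mrgpra2b, 0.051 to 0.15 for Padi4, -0.30 to -0.055 for Wfdc21, 0.013 to 0.065 for Sorl1, -0.21 to -0.042 for Trem3, 0.099 to 0.51 for Clec4e, 0.013 to 0.40 for Hcar2 and 0.15 to 1.19 for Acod1. The role-group mean differences ran over the same settings from -0.11 to -0.025 for primary granule genes, -0.20 to 0.068 for secondary and tertiary granule genes, -0.21 to 0.20 for mature genes and -0.040 to 0.32 for growth factor and activated genes. Samples with the same replicate number did not deviate together (r from -0.24 to 0.076 over the 5 pairs, across genes), and 0 of 5 ECP arrays correlated best with the control of its own number. The fit with the replicate number as a block called 0 genes and 0 neutrophil genes. Median centring, which shifts every difference by the same 0.0058, turned no sign among the 37 genes. Nor did renewed quantiles, on values whose distributions RMA had already equalised. The mean of probe sets could turn none, as each of these genes had a single probe set. The number of arrays limits the precision, and without detection calls a low level cannot be told from background for the 21 genes at or below the median gene level.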
